A study of Mus musculus with 32 samples.

Results

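Embryoid bodies (EBs, floating aggregates of differentiating embryonic stem cells) at day 9 were compared with EBs at day 6 to follow the onset of neuronal genes. The 8 libraries of these days, out of 32 libraries and 8 stages in the series, were taken by their stage and treatment labels. All were total RNA of EBs made from J1 mouse embryonic stem cells, a line of strain 129S4/SvJae. At each day there was 1 library of EBs given the solvent dimethyl sulfoxide (DMSO) alone and 1 library for each of 3 bisphenols at 100 nM, which were bisphenol A (BPA), its analog bisphenol F (BPF) and the analog bisphenol S (BPS). The bridge between the phenol rings is a dimethyl carbon in BPA, a methylene in BPF and a sulfonyl in BPS. The labels give neither the start of exposure nor the number of cultures behind a library, and the line is a single one. Day 9 was therefore compared with day 6 over the 4 treatments, each treatment paired with itself, and the p-values measure the spread between treatments, which may be technical. With 1 library per treatment and day, no bisphenol could be tested on its own. The bisphenol libraries were tested as 1 class of 3 against the lone DMSO library.

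Neurons arise from dividing neuroepithelial progenitors when proneural transcription factors of the basic helix-loop-helix (bHLH) family accumulate. These factors switch on Notch ligands, which hold neighbouring cells in the progenitor state through Hes repressors. They also start a chain of later bHLH, zinc-finger and Ebf factors that precede the neuronal cytoskeleton and, last, the synapse. Embryonic stem cells reach this point after leaving the naive and then the formative pluripotent state, and aggregates form mesoderm and endoderm beside neural cells.

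Levels are FPKM, the authors' estimate of fragments scaled to transcript length and to library depth, and values of 4 libraries are given in the order DMSO, BPA, BPF and BPS. Log2 changes are day 9 minus day 6 with their standard errors, from edgeR's quasi-likelihood test on expected counts with treatment as a block. A gene was called when the Benjamini-Hochberg adjusted p over all 13859 genes tested was under 0.05 and the log2 change was 1 or more in size. A change of 1 is a doubling. The 8 libraries held 10330378 to 10940376 expected counts each, over 16485 to 17047 listed genes. The first principal component of log2 CPM held 71.4% of the variance and separated the days. The second held 12.1% and placed the libraries of both days in the order DMSO, BPA, BPF, BPS.

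Between day 6 and day 9, 1406 genes (10.1% of those tested) were called higher and 531 (3.83%) lower. The median change of all genes was 0.02. For 6800 genes (49.1%) the 4 libraries of day 9 did not overlap in FPKM with the 4 of day 6, and for 1713 of the 1937 called genes they did not. Of the called genes, 1055 (54.5%) moved by a log2 of 1 or more in the same direction in each of the 4 treatments, 817 upwards (5.9% of genes tested) and 238 downwards (1.72%). Leaving out 1 treatment at a time kept 993 to 1031 of these 1055 called. In bulk RNA, fewer cells of a type and less RNA per cell cannot be told apart, here or in any result that follows.

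Among well-expressed genes that rose in all 4 treatments, the largest changes mixed neural genes with mesenchymal ones. Neurog2, a proneural bHLH factor (GRCm38.p6 chromosome 3, 127632733 to 127635636), measured 0.87, 0.33, 0.28 and 0.16 FPKM at day 6 and 17.2, 14.9, 15.4 and 9.52 FPKM at day 9 (log2 change 5.07 ± 0.21, adjusted p = 2.03e-07). Chgb, a granin of dense-core vesicles, measured 0.44, 0.73, 0.43 and 0.71 FPKM at day 6 and 24.2, 19.9, 15.8 and 16.1 FPKM at day 9 (log2 change 4.96 ± 0.16, adjusted p = 2.35e-08). Fabp7, the fatty acid-binding protein of radial glia, measured 0.75, 1.11, 0.99 and 1.88 FPKM at day 6 and 51.7, 25.8, 35.2 and 27.8 FPKM at day 9 (log2 change 4.78 ± 0.26, adjusted p = 1.47e-06). In these 3 genes every library of day 9 lay far above every library of day 6. Sim2, Stmn4, Nhlh1 and Ednrb belonged to the same set of 10, with log2 changes of 5.81, 5.48, 5.0 and 4.73, and in each the DMSO library was the highest at day 9. Vgll2, a cofactor of skeletal muscle and pharyngeal transcription, and the matrix genes Col3a1 and Lum had the opposite order. Vgll2 measured 0.45, 7.74, 12.6 and 21.5 FPKM at day 9 after 0 to 0.17 at day 6 (log2 change 6.34 ± 0.72, adjusted p = 0.00105).

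The largest gains in absolute level were in other genes. Nnat, an imprinted neural proteolipid, measured 165, 312, 331 and 366 FPKM at day 6 and 843, 922, 869 and 822 FPKM at day 9 (log2 change 1.55 ± 0.23, adjusted p = 0.00617). Igf2 and H19, an imprinted pair on chromosome 7, rose by 1.44 ± 0.12 and 1.52 ± 0.13, with 353, 522, 625 and 803 FPKM of Igf2 at day 9. Ckb, the brain creatine kinase, measured 48.3, 48.5, 46.9 and 41.9 FPKM at day 6 and 416, 338, 251 and 225 FPKM at day 9 (log2 change 2.63 ± 0.13, adjusted p = 8.31e-06). Crabp1, a retinoic acid-binding protein of the hindbrain and neural crest, measured 53.8, 56.9, 52.0 and 59.1 FPKM at day 6 and 478, 306, 217 and 212 FPKM at day 9 (log2 change 2.32 ± 0.26, adjusted p = 0.00256). At day 9 Ckb and Crabp1 were highest with DMSO and lowest with BPS, and Igf2 had the opposite order. Tubb2b, Igdcc3 and the intermediate filament gene Vim completed the 8 largest gains, with log2 changes of 1.93, 2.25 and 1.01. Vim was no longer called without the DMSO library (0.96) or without the BPS library (0.96). The largest losses in level were those of the glucose transporters Slc2a1 (-1.43 ± 0.06) and Slc2a3 (-1.53 ± 0.08), the keratins Krt8 (-1.79 ± 0.09) and Krt18 (-1.35 ± 0.13), Lin28a (-1.62 ± 0.06), Tagln2 (-1.22 ± 0.09), Emb (-1.67 ± 0.29) and Car4 (-1.12 ± 0.12). Emb lost its call without the BPF library (-1.59, adjusted p = 0.0708) and Car4 without the DMSO library (-0.99).

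The promoters of a few called genes are shown because members of 2 gene lists moved together, the proneural and commitment factors upwards and interferon-type genes downwards. Each is the 250 bases before a RefSeq start of GRCm38.p6, 5′ to 3′ on the gene's strand, with the matches in capitals. Proneural factors bind E-boxes, and CAGCTG and CAGATG were searched on both strands. CAGCTG was present in 13.0% of all 32851 promoters (27025 genes), in 12.1% for genes tested, in 15.2% for genes called higher and in 15.2% for genes called lower. For the 12 matched genes called higher in the proneural and commitment lists it was present in 17.6% (3 of 17). Of these 3 promoters, 2 belonged to Hes6. CAGATG was present in 14.4% of all promoters, in 9.74% for genes tested, in 12.6% for genes called higher and in 10.7% for genes called lower. For the proneural and commitment set it was present in 11.8% (2 of 17), under the share of genes called higher. Hes6, on the minus strand of chromosome 1 (chr1:91414039-91414288), held CAGCTG 171 bases before the start. Nhlh1, also on the minus strand of chromosome 1 (chr1:172057597-172057846), held CAGATG 203 bases before it. Nhlh2, on the plus strand of chromosome 3 (chr3:102009895-102010144), held CAGATG 127 bases before it.
Hes6: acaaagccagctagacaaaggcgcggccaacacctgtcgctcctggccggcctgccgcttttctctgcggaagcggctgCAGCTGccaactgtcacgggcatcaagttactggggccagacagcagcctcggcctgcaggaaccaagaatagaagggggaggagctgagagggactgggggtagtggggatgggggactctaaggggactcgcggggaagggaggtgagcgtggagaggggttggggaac
Nhlh1: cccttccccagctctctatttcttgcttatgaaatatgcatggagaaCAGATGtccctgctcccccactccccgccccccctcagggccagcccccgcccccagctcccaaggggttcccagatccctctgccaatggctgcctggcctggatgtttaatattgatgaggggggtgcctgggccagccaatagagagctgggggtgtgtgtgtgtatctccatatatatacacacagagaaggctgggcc
Nhlh2: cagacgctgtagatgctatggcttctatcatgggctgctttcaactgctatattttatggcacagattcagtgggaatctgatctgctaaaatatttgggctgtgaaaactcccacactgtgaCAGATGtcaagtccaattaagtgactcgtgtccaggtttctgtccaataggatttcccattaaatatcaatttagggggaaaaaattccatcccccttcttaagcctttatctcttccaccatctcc
Factors of the interferon response bind sites of the form TTCNNNGAA, a palindrome searched on both strands. It was present in 7.02% of all promoters, in 5.73% for genes tested and in 6.82% for genes called lower. For the 15 matched genes called lower in the interferon-type list it was present in 22.2% (4 of 18). Psmb8 (plus strand, chr17:34197945-34198194) held it 97 bases before the start, Irf1 (plus strand, chr11:53769764-53770013) 90 bases before, and Gbp7 (plus strand, chr3:142530086-142530335) at 106 and 87 bases.
Psmb8: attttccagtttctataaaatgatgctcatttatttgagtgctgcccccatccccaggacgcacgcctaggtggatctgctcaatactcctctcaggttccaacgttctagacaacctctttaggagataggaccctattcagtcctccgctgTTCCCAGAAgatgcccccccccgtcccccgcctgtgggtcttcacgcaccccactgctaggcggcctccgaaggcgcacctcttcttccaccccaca
Irf1: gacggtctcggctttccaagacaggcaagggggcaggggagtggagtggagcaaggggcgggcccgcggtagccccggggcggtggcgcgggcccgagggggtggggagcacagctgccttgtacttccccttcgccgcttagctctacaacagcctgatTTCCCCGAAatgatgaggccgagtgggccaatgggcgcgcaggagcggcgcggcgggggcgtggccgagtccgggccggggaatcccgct
Gbp7: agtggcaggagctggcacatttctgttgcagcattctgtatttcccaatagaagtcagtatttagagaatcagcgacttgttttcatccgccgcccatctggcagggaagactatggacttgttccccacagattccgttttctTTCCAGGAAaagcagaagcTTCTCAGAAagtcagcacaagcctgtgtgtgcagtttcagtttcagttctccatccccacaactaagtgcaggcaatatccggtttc
The letters alone do not show a bound site. The genes' levels are given below with their lists.

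Proneural and neurogenic bHLH factors rose. Of the 14 on the list, 9 passed the filter on low values and were called higher, each by a log2 of 1 or more in all 4 treatments, with a median change of 3.82. A gene that passed the filter through day 9 alone had to be higher there, so such counts describe a list and are read beside the 10.1% of all genes called higher. Neurog1, a neurogenin of sensory and ventral progenitors, measured 0.65, 1.18, 1.02 and 0.71 FPKM at day 6 and 21.2, 13.4, 10.7 and 8.99 FPKM at day 9 (log2 change 3.82 ± 0.24, adjusted p = 2.43e-06). Neurod1, a differentiation factor downstream of neurogenins, measured 1.19, 0.66, 0.51 and 0.59 FPKM at day 6 and 18.6, 10.0, 7.38 and 6.58 FPKM at day 9 (log2 change 3.77 ± 0.14, adjusted p = 3.24e-08). Nhlh1, a factor of newly born neurons, measured 0.37, 0.62, 0.25 and 0.59 FPKM at day 6 and 23.4, 15.8, 12.0 and 11.1 FPKM at day 9 (log2 change 5.0 ± 0.22, adjusted p = 4.85e-07). The days did not overlap in any of these genes, and DMSO was the highest library of day 9 in each. Nhlh2, whose promoter is shown above, measured 0.03 to 0.17 FPKM at day 6 and 8.59, 5.19, 4.56 and 3.87 at day 9 (log2 change 5.72 ± 0.32, adjusted p = 1.08e-06). Neurod4 went from 0.22 to 0.49 to 4.95 to 8.78 FPKM, with a log2 change of 4.23 ± 0.18. Olig3 and Bhlhe22 rose by 2.71 ± 0.35 and 2.30 ± 0.22. The cortical factors Neurod2 and Neurod6 and the endocrine factor Neurog3 did not pass the filter on low values, with at most 0.30 FPKM in any library. Atoh1, of cerebellar and hair cell progenitors, measured 1.13, 0.74, 0.22 and 0.23 FPKM at day 9 and also failed the filter.

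Commitment regulators, which are known to act after the proneural factors, also rose. Both lists were measured over the same interval, so their order in time cannot be seen here. Of 14 tested, 10 were called higher and none lower (median 2.88). Insm1, a zinc-finger factor of delaminating progenitors, measured 0.89, 0.81, 1.45 and 1.33 FPKM at day 6 and 13.9, 9.63, 6.98 and 5.65 FPKM at day 9 (log2 change 2.88 ± 0.36, adjusted p = 0.00159). Ebf3, an early B-cell factor family member of migrating neurons, measured 0.49, 0.43, 0.47 and 0.50 FPKM at day 6 and 15.2, 10.8, 9.94 and 8.98 FPKM at day 9 (log2 change 4.50 ± 0.12, adjusted p = 6.23e-09). Myt1, a zinc-finger repressor of progenitor genes, measured 0.07, 0.12, 0.03 and 0.12 FPKM at day 6 and 5.90, 3.67, 3.28 and 2.62 FPKM at day 9 (log2 change 5.38 ± 0.27, adjusted p = 3.41e-07). Each was near 0 to 1.5 FPKM at day 6 and highest with DMSO at day 9. Scrt1 and Scrt2, Snail-related factors of postmitotic neurons, rose by 5.31 ± 0.30 and 5.45 ± 0.39, and Ebf2 by 3.73 ± 0.24. St18 had 2 counts in all at day 6 and 395 at day 9, a ratio of 193 with a 95% counting interval of 53.1 to 1600. Hes6, a Hes-family protein that favours differentiation, was expressed at 14.0, 13.3, 13.1 and 13.3 FPKM at day 6 and reached 52.3, 41.6, 32.4 and 29.8 (log2 change 1.46 ± 0.12, adjusted p = 1.02e-05). Gadd45g rose by 1.19 ± 0.20, but without the DMSO library by 0.9, under the threshold. Sox4 (0.64 ± 0.06), Sox11 (0.92 ± 0.05) and Prox1 (0.90 ± 0.13) had changes under 1. Myt1l was listed at 0 in all 4 libraries of day 6 and at most 0.12 FPKM at day 9.

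**Figure D1:**
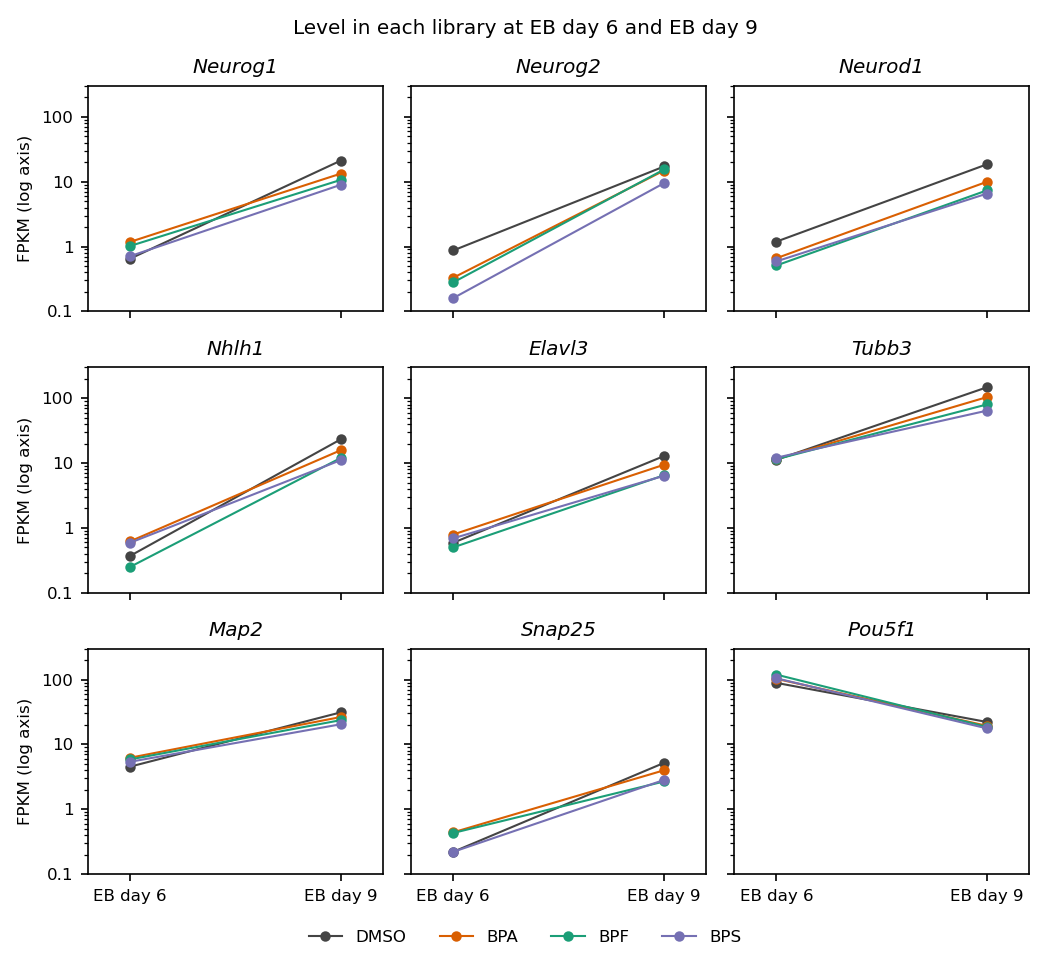
FPKM on a log axis at EB day 6 and EB day 9 for 8 neuronal genes and Pou5f1, with 1 line per treatment joining its 2 libraries. Each neuronal gene is higher at day 9 in all 4 treatments, Neurog1 reaching 8.99 to 21.2 FPKM, and Pou5f1 falls in all 4.

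Neuronal RNA-binding proteins and the chromatin remodelling subunits of neurons changed in part. Of 16 RNA-binding and splicing factors tested, 8 were called higher and none lower, all 8 in all 4 treatments (median 1.45). Elavl4, a Hu protein that stabilises neuronal transcripts, measured 1.5, 1.46, 1.09 and 1.48 FPKM at day 6 and 24.7, 20.5, 15.1 and 14.8 FPKM at day 9 (log2 change 3.76 ± 0.11, adjusted p = 6.23e-09). Elavl3 measured 0.59, 0.79, 0.50 and 0.69 FPKM at day 6 and 12.8, 9.43, 6.49 and 6.38 FPKM at day 9 (log2 change 3.67 ± 0.16, adjusted p = 3.99e-07). Celf3 rose by 4.08 ± 0.23, Celf6 by 3.20 ± 0.37, the splicing factor Nova2 by 2.61 ± 0.15 and Srrm4, which drives neuronal microexons, by 2.48 ± 0.16. Ptbp1, the splicing repressor that non-neuronal cells use, stayed abundant at 205, 205, 212 and 198 FPKM at day 9 (-0.45 ± 0.05), and Ptbp2 measured 39.1 to 46.0 (-0.02 ± 0.08). In the list of REST, CoREST and BAF subunits, 4 of 15 were called higher. Actl6b, the neuronal BAF subunit, had 1 count at day 6 and 51 at day 9 (ratio 49.9, 95% counting interval 8.55 to 2010), while its progenitor counterpart Actl6a measured 61.0, 54.7, 57.7 and 54.1 FPKM at day 9. Dpf3 rose by 3.46 ± 0.37, Smarcd3 by 1.43 ± 0.14 and Ss18l1 by 1.10 ± 0.11. Rest, the repressor of neuronal genes, measured 4.95, 5.56, 5.20 and 5.78 FPKM at day 6 and 4.08, 4.94, 5.54 and 5.58 at day 9, and the days overlapped (log2 change -0.16 ± 0.09, adjusted p = 0.156).

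The neuronal cytoskeleton list held 20 genes called higher and 1 called lower of 35 tested (median 1.25). Tubb3, the tubulin of young neurons, measured 11.2, 11.4, 11.5 and 12.1 FPKM at day 6 and 148, 104, 80.5 and 64.5 FPKM at day 9 (log2 change 2.98 ± 0.23, adjusted p = 0.000455). Day 6 was even across treatments, and at day 9 DMSO was the highest and BPS the lowest. Dcx, which binds microtubules in migrating neurons, measured 0.02, 0.06, 0.01 and 0.03 FPKM at day 6 and 4.14, 3.44, 2.92 and 2.66 FPKM at day 9 (log2 change 6.65 ± 0.23, adjusted p = 2.39e-08). Map2, of dendrites, measured 4.54, 6.23, 5.87 and 5.39 FPKM at day 6 and 31.3, 26.5, 23.7 and 20.5 FPKM at day 9 (log2 change 2.18 ± 0.15, adjusted p = 5.25e-05). Nefm, a neurofilament subunit, measured 3.17 to 4.26 and 21.1 to 26.1 FPKM on the 2 days (log2 change 2.52 ± 0.08, adjusted p = 9.75e-09), Tagln3 rose by 2.86 ± 0.12 and Mapt (tau) by 2.99 ± 0.24. Growth-cone and tubulin genes that were already expressed at day 6 changed less. Gap43 measured 36.7, 24.3, 20.4 and 17.4 FPKM at day 6 and 65.2, 50.02, 41.7 and 38.2 FPKM at day 9 (log2 change 0.94 ± 0.07, adjusted p = 2.83e-06). Tuba1a measured 895 to 974 and 955 to 1290.5 FPKM (0.20 ± 0.06), and Ina changed by 0.82 ± 0.13. Nefh, the heavy neurofilament subunit of mature axons, was the member called lower, from 0.34 to 0.53 to 0.11 to 0.30 FPKM (log2 change -1.23 ± 0.35, adjusted p = 0.0117).

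Genes of the synapse rose in part, at low levels. Of 26 vesicle and release genes tested, 14 were called higher and 1, Sv2a, lower (median 1.07). Snap25, a SNARE protein of vesicle fusion, measured 0.22, 0.44, 0.43 and 0.22 FPKM at day 6 and 5.19, 3.99, 2.68 and 2.83 FPKM at day 9 (log2 change 3.40 ± 0.28, adjusted p = 5.47e-06). Rab3a, a vesicle GTPase, measured 3.14, 2.47, 2.23 and 2.32 FPKM at day 6 and 10.9, 11.7, 9.76 and 12.4 FPKM at day 9 (log2 change 2.08 ± 0.15, adjusted p = 1.8e-06). Syp (synaptophysin) measured 11.8, 8.20, 5.93 and 5.44 FPKM at day 9 after 1.19 to 2.46 at day 6 (log2 change 2.03 ± 0.33, adjusted p = 0.003). Sncg rose by 4.08 ± 0.38, Syt4 by 3.02 ± 0.42, Sncb by 2.14 ± 0.34 and Rab3c by 4.59 ± 0.49, the last to at most 0.41 FPKM. Syt1, the calcium sensor of fast release, measured 0.70, 0.63, 0.57 and 0.39 FPKM at day 6 and 1.71, 0.98, 0.52 and 0.60 FPKM at day 9 and did not pass (log2 change 0.61 ± 0.24, adjusted p = 0.0526). With the filter raised to 5 CPM, 6 vesicle genes were called higher.

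Transmitter genes were led by the glutamatergic and catecholaminergic ones. In this list 7 of 13 tested members were called higher and 1 lower (median 1.29). Slc17a6, the vesicular glutamate transporter VGLUT2, measured 0.02, 0.02, 0.04 and 0 FPKM at day 6 and 2.49, 1.33, 1.06 and 1.24 FPKM at day 9 (log2 change 5.95 ± 0.39, adjusted p = 1.21e-06). Th, tyrosine hydroxylase of catecholamine synthesis, measured 0.26, 0.42, 0.47 and 0.37 FPKM at day 6 and 3.80, 8.12, 5.19 and 2.93 FPKM at day 9 (log2 change 3.61 ± 0.24, adjusted p = 1.37e-06). In Th the BPA library was the highest at day 9, and in Slc17a6 the DMSO library. Ddc, the decarboxylase of the same pathway, rose by 2.35 ± 0.20, Slc17a7 by 2.88 ± 0.40 and the noradrenaline transporter Slc6a2 by 2.84 ± 0.58, at no more than 0.28 FPKM. The GABA-synthesising enzymes Gad1 (0.69 ± 0.29) and Gad2 (-0.88 ± 0.28) were below 1 FPKM in every library. The choline transporter Slc5a7 was called lower at 0.17 to 0.25 and 0.04 to 0.13 FPKM (log2 change -1.75 ± 0.42, adjusted p = 0.00525). Slc18a3, the vesicular acetylcholine transporter, measured 0.23, 0.11, 0.08 and 0.19 FPKM at day 6 and 0.19, 0.61, 0.69 and 0.48 FPKM at day 9 and was called higher (log2 change 1.58 ± 0.51, adjusted p = 0.0227), with the DMSO pair not higher at day 9, and it passed the filter on low values only with all 3 bisphenols in the fit. It passed through their libraries of day 9 and had to be higher there, so its adjusted p is a description. Chat and Slc32a1, of cholinergic and inhibitory neurons, did not pass the filter. Of 22 channel and receptor genes tested, 11 were called higher and 1 lower (median 1.14). Cacng4, an auxiliary subunit of AMPA receptors, measured 0.96, 1.04, 1.71 and 0.77 FPKM at day 6 and 9.68, 5.94, 4.04 and 4.11 FPKM at day 9 (log2 change 2.29 ± 0.31, adjusted p = 0.000173). Scn3b rose by 2.75 ± 0.18 and the potassium channel Kcnc1 by 3.69 ± 0.25. Scn3a, Scn9a and Cacna1e were called higher at no more than 0.27 FPKM. The receptor subunits Gria1 and Gria2 were at 0.11 FPKM or less in every library.

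Axon guidance genes rose in part. Of 32 tested, 16 were called higher and none lower (median 0.97). Slit1, a repellent, measured 1.64, 2.54, 4.57 and 5.19 FPKM at day 6 and 17.1, 24.9, 17.8 and 15.9 FPKM at day 9 (log2 change 2.42 ± 0.41, adjusted p = 0.0131). Ntn1, the netrin of the floor plate, measured 12.0, 11.5, 11.5 and 12.3 FPKM at day 6 and 42.1, 67.8, 59.0 and 48.8 FPKM at day 9 (log2 change 2.12 ± 0.13, adjusted p = 2.05e-05). Dcc, the netrin receptor, measured 0.40, 0.39, 0.16 and 0.24 FPKM at day 6 and 4.44, 2.63, 1.78 and 2.27 FPKM at day 9 (log2 change 3.16 ± 0.14, adjusted p = 1.57e-07). Ntn1 was higher at day 9 in each bisphenol library than in DMSO, and Dcc was lower in each. Epha3 rose by 4.51 ± 0.29, Plxna4 by 2.59 ± 0.30, the adhesion molecule Cntn1 by 2.53 ± 0.21, Sema3d by 2.52 ± 0.15 and L1cam by 2.17 ± 0.26. Robo1, a Slit receptor, measured 7.53, 8.96, 12.3 and 13.2 FPKM at day 6 and 12.6, 8.83, 9.94 and 9.97 FPKM at day 9 and its days overlapped (log2 change -0.06 ± 0.21, adjusted p = 0.827).

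Transcription factors of neuron subtypes rose across several classes. Of 27 tested, 20 were called higher and 2 lower, 17 of the 20 in all 4 treatments (median 2.21). Sim2, of ventral neural and muscle precursors, measured 0.83, 0.30, 0.17 and 0.22 FPKM at day 6 and 33.7, 24.3, 17.8 and 12.3 FPKM at day 9 (log2 change 5.81 ± 0.15, adjusted p = 1.21e-08). Onecut1, of spinal and midbrain neurons, measured 0.25, 0.20, 0.15 and 0.10 FPKM at day 6 and 6.86, 4.21, 2.81 and 2.71 FPKM at day 9 (log2 change 4.43 ± 0.25, adjusted p = 5.14e-07). Lmx1a, of midbrain dopaminergic precursors and the roof plate, measured 2.96, 2.59, 2.34 and 2.64 FPKM at day 6 and 15.7, 24.4, 18.3 and 14.8 FPKM at day 9 (log2 change 2.72 ± 0.13, adjusted p = 8.29e-07). Isl1, of motor and sensory neurons and also of cardiac progenitors, measured 0.29, 0.97, 2.49 and 3.36 FPKM at day 6 and 1.79, 5.0, 6.34 and 7.49 FPKM at day 9 (log2 change 1.61 ± 0.23, adjusted p = 0.000308). DMSO was the highest library of day 9 for Sim2 and Onecut1 and the lowest for Isl1. Lhx4, with 2 counts at day 6, had a ratio of day 9 to day 6 of 36.2 (95% counting interval 9.66 to 304). Barhl1 rose by 4.79 ± 0.30 and Lhx9 by 3.81 ± 0.50. Evx1, also a gene of the primitive streak, was called lower (log2 change -2.01 ± 0.27, adjusted p = 0.000131).

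Progenitor genes fell into those that rose and those that changed little. Of 30 tested, 14 were called higher and 3 lower (median 0.92). Hes5, the Notch-driven repressor of neural progenitors, measured 2.80, 2.98, 1.16 and 2.72 FPKM at day 6 and 35.5, 24.8, 20.6 and 19.1 FPKM at day 9 (log2 change 3.31 ± 0.18, adjusted p = 1.2e-06). Ednrb, an endothelin receptor, measured 0.93, 0.79, 0.20 and 0.66 FPKM at day 6 and 22.9, 16.3, 14.3 and 16.5 FPKM at day 9 (log2 change 4.73 ± 0.24, adjusted p = 1.48e-05). Olig2, of ventral progenitors, measured 0, 0.07, 0.07 and 0 FPKM at day 6 and 6.85, 2.32, 2.03 and 1.33 FPKM at day 9 (log2 change 6.11 ± 0.49, adjusted p = 6.24e-06). Zic1 measured 33.3, 16.3, 12.0 and 12.7 FPKM at day 9 (log2 change 2.23 ± 0.10, adjusted p = 2.23e-07), Zic4 rose by 4.78 ± 0.50 and Sox5 by 2.35 ± 0.20. DMSO was the highest library of day 9 in Hes5, Ednrb, Olig2, Zic1 and Zic4, but not in Sox5. The general markers of neuroepithelium were present at both days with changes under 1. Sox2 measured 85.7, 82.2, 70.6 and 74.4 FPKM at day 6 and 159, 125, 115 and 101 FPKM at day 9 (log2 change 0.61 ± 0.07, adjusted p = 4.48e-05). Nes measured 13.2 to 19.6 and 29.8 to 40.2 FPKM (0.93 ± 0.07), Pax6 1.20 to 4.09 and 1.86 to 6.67 (0.65 ± 0.14), and Sox1 23.2 to 40.0 and 14.4 to 32.4 (-0.50 ± 0.07). Zic2 and Hes3 were among those called lower (-1.27 ± 0.15 and -1.14 ± 0.37).

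Notch pathway genes rose in part, ligands included. Of 19 tested, 11 were called higher and none lower (median 1.24). Dll1, the ligand of differentiating neural cells, measured 5.08, 4.74, 3.95 and 5.01 FPKM at day 6 and 19.3, 13.4, 12.3 and 10.2 FPKM at day 9 (log2 change 1.47 ± 0.13, adjusted p = 2.17e-05). Notch1 measured 6.31, 6.25, 6.55 and 6.97 FPKM at day 6 and 19.4, 17.1, 14.0 and 14.2 FPKM at day 9 (log2 change 1.24 ± 0.10, adjusted p = 1.7e-05). Mfng, a glycosyltransferase that modifies Notch receptors, measured 3.85, 4.14, 3.10 and 3.28 FPKM at day 6 and 23.1, 21.8, 14.6 and 12.1 FPKM at day 9 (log2 change 2.23 ± 0.12, adjusted p = 3.85e-07). For these 3 genes the highest library of day 9 was DMSO. Dll4, the ligand of endothelium and of some interneuron precursors, measured 1.76, 1.97, 2.06 and 3.34 FPKM (log2 change 4.60 ± 0.33, adjusted p = 2.16e-06), and the repressor Heyl 1.17, 3.51, 3.14 and 4.59 FPKM (log2 change 3.81 ± 0.20, adjusted p = 3.54e-07). Hey1 and Hey2 rose by 2.0 ± 0.10 and 1.81 ± 0.20. BPS was the highest library of day 9 in Dll4, Heyl, Hey1 and Hey2, which endothelial and cardiac cells also use. Dll3 measured 4.97, 9.83, 14.7 and 12.8 FPKM at day 6 and 24.0, 19.8, 13.5 and 10.7 FPKM at day 9, higher at day 9 in DMSO and BPA and lower in BPF and BPS (log2 change 0.62 ± 0.54, adjusted p = 0.395). Hes1 did not change beyond the threshold (0.07 ± 0.06).

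Regulators of the cell cycle moved apart from the cycle genes themselves. Of 9 cyclin-dependent kinase inhibitors, D cyclins and related genes tested, 5 were called higher and none lower (median 1.32). Cdkn1c, an inhibitor that marks cells leaving the cycle, measured 9.54, 11.7, 11.3 and 12.6 FPKM at day 6 and 49.1, 57.0, 44.96 and 53.6 FPKM at day 9 (log2 change 2.13 ± 0.08, adjusted p = 3.08e-08). Ccnd2, a D cyclin of neural progenitors, measured 35.6, 48.7, 46.6 and 51.8 FPKM at day 6 and 185, 151, 141 and 137 FPKM at day 9 (log2 change 1.69 ± 0.18, adjusted p = 0.00111). Cdkn1a rose by 1.40 ± 0.08, Cdkn2c by 1.61 ± 0.16 and Ccnd1 by 1.32 ± 0.12. None of 20 DNA replication genes (median -0.48) and none of 18 mitosis genes (median -0.27) was called in either direction by edgeR at both thresholds, nor by DESeq2 or limma. At an unadjusted p under 0.05 alone, 18 of the replication genes were lower and none higher, and 12 of the mitosis genes were lower and 2 higher. Mcm2, a replicative helicase subunit, measured 130.5, 121, 123 and 122 FPKM at day 6 and 93.8, 91.6, 89.2 and 83.5 FPKM at day 9 (log2 change -0.53 ± 0.05, adjusted p = 1.04e-05), and Top2a 139.9 to 163 and 153 to 172 FPKM (0.05 ± 0.06).

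**Figure D2:**
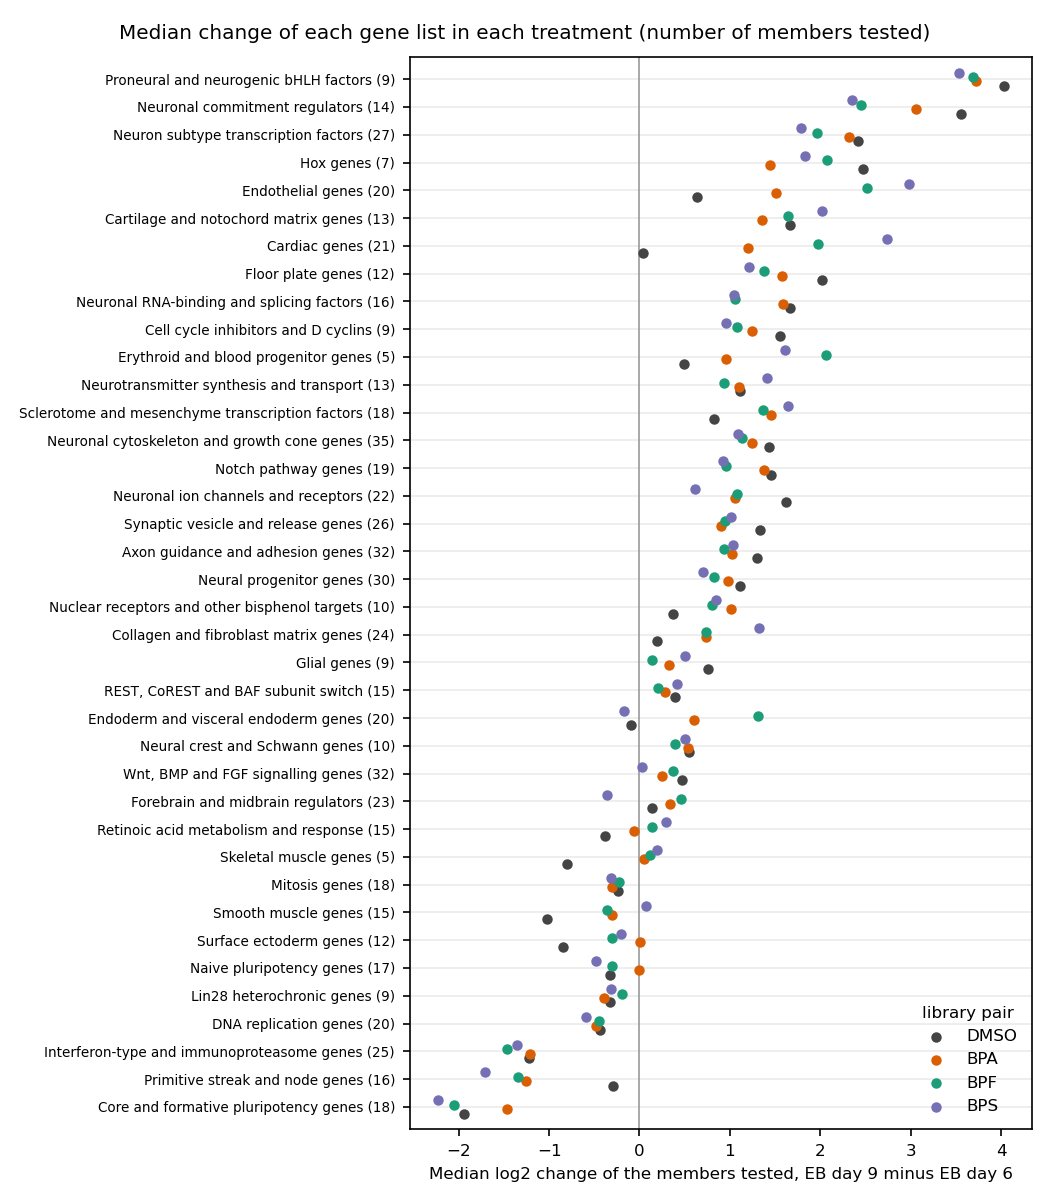
Median log2 change from EB day 6 to EB day 9 of the tested members of each gene list with at least 5 tested, with 1 dot per treatment. Proneural genes have medians of 3.53 to 4.03 in the 4 treatments, and the endothelial list runs from 0.64 with DMSO to 2.98 with BPS.

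Genes of the ventral midline and hindbrain rose in part, and those of the forebrain and midbrain moved both ways. Of 12 floor plate genes tested, 7 were called higher and none lower (median 1.46). Shh, the ventral morphogen, measured 4.74, 18.1, 22.4 and 22.3 FPKM at day 6 and 32.1, 74.0, 62.8 and 49.1 FPKM at day 9 (log2 change 1.73 ± 0.30, adjusted p = 0.0124), and without the BPF library its adjusted p was 0.0537 (1.83). Foxa1, a forkhead factor of the floor plate and endoderm, measured 1.39, 3.70, 5.90 and 5.33 FPKM at day 6 and 13.6, 29.8, 27.4 and 23.7 FPKM at day 9 (log2 change 2.52 ± 0.21, adjusted p = 0.000258). Both were lower with DMSO than with any bisphenol at both days. Corin rose by 4.81 ± 0.23 and Spon1, an axon-guiding matrix protein, by 2.62 ± 0.09. Ferd3l had 1 count at day 6 and 173 at day 9 (ratio 169, 95% counting interval 30 to 6720). Foxa2 measured 12.5, 38.8, 45.1 and 44.5 FPKM at day 6 and 29.3, 51.6, 46.6 and 38.3 FPKM at day 9, higher at day 9 with DMSO, BPA and BPF and lower with BPS, and it was not called (log2 change 0.28 ± 0.26, adjusted p = 0.426). Of 23 forebrain and midbrain regulators tested, 6 were called higher and 5 lower (median 0.28). Otx1 measured 7.48, 3.08, 2.60 and 3.50 FPKM at day 6 and 28.6, 13.9, 13.4 and 10.9 FPKM at day 9 (log2 change 1.96 ± 0.11, adjusted p = 5.06e-07). Nkx2-1, of the ventral forebrain, rose by 2.91 ± 0.28 and En2 by 2.18 ± 0.20. Pax2, of the midbrain-hindbrain boundary and kidney, measured 11.5, 5.13, 3.84 and 4.34 FPKM at day 6 and 0.33, 0.39, 0.46 and 0.16 FPKM at day 9 (log2 change -4.18 ± 0.29, adjusted p = 5.72e-06), and Hesx1 was called lower (log2 change -2.43 ± 0.24, adjusted p = 1.71e-05). Otx2 stayed at 89.9 to 134 FPKM (0.07 ± 0.13). Of 39 Hox genes, 7 passed the filter and all 7 were called higher, none above 3.88 FPKM among those named here, and 7 others were listed at 0 in all 8 libraries. Hoxb2 measured 0.23, 0.68, 0.56 and 0.74 FPKM at day 6 and 1.77, 1.99, 3.77 and 3.88 FPKM at day 9 (log2 change 2.29 ± 0.27, adjusted p = 5.62e-05), and Hoxa3, Hoxb3 and Hoxb4 rose by 3.0 ± 0.55, 2.11 ± 0.29 and 2.63 ± 0.46. The filter of 5 CPM left none of the Hox genes called, and without the BPA library 4 were called.

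Glial genes and neural crest genes moved both ways. Of 9 glial genes tested, 2 were called higher (22.2%) and 1 lower (11.1%), beside 10.1% and 3.83% of all genes tested. Slc1a2, a glutamate transporter, measured 0.29 to 0.60 and 1.12 to 2.81 FPKM (log2 change 2.06 ± 0.15, adjusted p = 1.96e-06), and Sparcl1, also of endothelium, 4.78, 7.16, 8.98 and 11.3 at day 9 (log2 change 4.29 ± 0.25, adjusted p = 2.29e-06). Gfap was at 0.11 FPKM or less in every library. Of 10 neural crest and Schwann genes tested, 4 were called higher and 1 lower (median 0.31). Foxd3, of early neural crest and pluripotent cells, was called lower (log2 change -3.18 ± 0.38, adjusted p = 6.29e-05), and Snai2 rose by 1.77 ± 0.24. Sox10 did not pass the filter.

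The genes that fell were led by those of the formative pluripotent state. Of 18 core and formative pluripotency genes tested, 13 were called lower and none higher, 10 of them in all 4 treatments (median -1.89). Pou5f1, the pluripotency factor OCT4, measured 89.0, 103, 119 and 105 FPKM at day 6 and 22.1, 19.3, 18.6 and 17.6 FPKM at day 9 (log2 change -2.47 ± 0.11, adjusted p = 4.85e-07). Dnmt3b, the de novo DNA methyltransferase of the epiblast, measured 75.4, 82.9, 98.2 and 96.5 FPKM at day 6 and 7.62, 7.71, 10.7 and 10.9 FPKM at day 9 (log2 change -3.35 ± 0.07, adjusted p = 8.92e-10). Pim2, a kinase, measured 107, 145, 140.5 and 122 FPKM at day 6 and 7.74, 10.1, 8.77 and 9.29 FPKM at day 9 (log2 change -3.90 ± 0.07, adjusted p = 5.97e-10). No library of day 9 reached the lowest library of day 6 in these genes. Fgf5 (-4.64 ± 0.10), Eras (-4.37 ± 0.21), Zscan10 (-3.33 ± 0.09) and Tdgf1 (-2.57 ± 0.16) fell too, as did Foxh1, a Nodal effector outside the list (-3.22 ± 0.08). Utf1 was called lower at -2.52 ± 0.14. In the naive list 1 of 17 genes was called, Nanog, which measured 59.3, 48.9, 43.4 and 43.3 FPKM at day 6 and 16.3, 13.0, 15.1 and 11.4 FPKM at day 9 (log2 change -1.86 ± 0.08, adjusted p = 1.04e-07). Zfp42 (-0.74 ± 0.13), Esrrb (-0.37 ± 0.15), Klf4 (0.17 ± 0.18) and Dppa3 (-0.04 ± 0.27) were below 12 FPKM at day 6 and did not pass. Of 9 Lin28 pathway genes, Lin28a measured 264, 256, 253 and 263 FPKM at day 6 and 79.4, 87.6, 90.9 and 93.0 FPKM at day 9 (log2 change -1.62 ± 0.06, adjusted p = 3.01e-08) and Nr6a1, a repressor of Pou5f1, 85.2, 71.5, 64.7 and 67.9 FPKM at day 6 and 24.7, 25.3, 25.4 and 26.4 FPKM at day 9 (log2 change -1.56 ± 0.08, adjusted p = 3.61e-07). Lin28b was level (0 ± 0.07).

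Primitive streak and node genes fell from a day 6 level that differed between treatments. Of 16 tested, 9 were called lower and none higher (median -1.23), 6 in all 4 treatments. Cer1, a secreted inhibitor of Nodal and BMP, measured 10.2, 62.5, 114 and 99.6 FPKM at day 6 and 0.23, 0.33, 1.70 and 1.08 FPKM at day 9 (log2 change -6.50 ± 0.16, adjusted p = 1.9e-08). Eomes, a T-box factor of the streak, measured 3.51, 7.49, 12.6 and 12.8 FPKM at day 6 and 1.80, 1.32, 1.76 and 1.43 FPKM at day 9 (log2 change -2.47 ± 0.40, adjusted p = 0.0067). T (brachyury), of mesoderm and notochord, measured 10.3, 46.4, 55.8 and 60.5 FPKM at day 6 and 8.13, 23.3, 21.2 and 18.6 FPKM at day 9 (log2 change -1.23 ± 0.22, adjusted p = 0.00808), and was not called without the BPF library (-1.15, adjusted p = 0.0572). Mesp1, of early heart mesoderm, measured 0.09, 1.52, 4.32 and 2.31 FPKM at day 6 and 0, 0.34, 0.43 and 0.09 FPKM at day 9 (log2 change -3.23 ± 0.43, adjusted p = 0.000129). In Cer1, Eomes, T and Mesp1 the DMSO library of day 6 was lower than each bisphenol library. Nodal did not share this order, at 9.52, 10.2, 9.87 and 7.68 FPKM at day 6 and 1.72, 1.72, 2.17 and 1.94 at day 9 (log2 change -2.36 ± 0.14, adjusted p = 6.23e-07). Nkx1-2 and Lefty1 fell in every treatment, with changes of -3.16, -3.52, -4.52 and -4.69 and of -2.33, -1.96, -2.13 and -1.93. The summed FPKM of the list at day 6 was 61.5 with DMSO and 165 to 237 with bisphenols, and at day 9 35.2 and 38.7 to 47.3.

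Interferon-type and immunoproteasome genes fell, most of those called in all 4 treatments. Of 25 tested, 16 were called lower and none higher, 12 in all 4 treatments (median -1.17). Psmb8, an inducible proteasome subunit, measured 8.52, 16.5, 18.4 and 15.9 FPKM at day 6 and 0.84, 0.69, 0.77 and 0.64 FPKM at day 9 (log2 change -4.35 ± 0.21, adjusted p = 2.29e-07). Psmb10, another one, measured 19.1, 29.8, 32.5 and 24.7 FPKM at day 6 and 4.05, 4.27, 5.76 and 3.93 FPKM at day 9 (log2 change -2.61 ± 0.11, adjusted p = 1.04e-07). Irf1, a transcription factor of the response, measured 13.5, 18.3, 20.8 and 18.2 FPKM at day 6 and 4.29, 5.33, 5.68 and 5.55 FPKM at day 9 (log2 change -1.82 ± 0.08, adjusted p = 1.58e-07). Gbp2 and Gbp2b, guanylate-binding proteins whose near-identical copies can share reads, fell by 4.61 and 4.50, Gbp3 by 3.40 and Gbp7 by 1.58 on the log2 scale. Irgm1 and Psmb9 had changes of -2.79 ± 0.20 and -2.75 ± 0.35, and the GTPase Igtp of -1.97 ± 0.16. The days did not overlap in any gene named here. B2m, of class I major histocompatibility complexes, had a change of -0.62 ± 0.07, under the threshold. The promoters of Psmb8, Irf1 and Gbp7 shown above held TTCNNNGAA, and that of Igtp held it 45 bases before the start. Another promoter of Irf1 did not hold it, nor did those of Gbp2, Gbp2b, Gbp3, Psmb9, Psmb10 and Irgm1 within 250 bases.

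Endothelial and cardiac genes rose in part, and the median changes of both lists were smallest in the DMSO pair. Of 20 endothelial genes tested, 15 were called higher and none lower, 7 in all 4 treatments. The list's median change was 0.64 with DMSO, 1.51 with BPA, 2.52 with BPF and 2.98 with BPS. Cdh5, the cadherin of endothelial junctions, measured 0.14, 0.11, 0.29 and 0.46 FPKM at day 6 and 0.87, 2.61, 8.73 and 10.9 FPKM at day 9 (log2 change 4.39 ± 0.24, adjusted p = 6.2e-07). Tie1, an endothelial receptor kinase, measured 0.07, 0.07, 0.09 and 0.14 FPKM at day 6 and 0.19, 1.56, 3.03 and 5.74 FPKM at day 9 (log2 change 4.62 ± 0.39, adjusted p = 1.06e-05). Kdr, the VEGF receptor, measured 1.12, 1.04, 1.67 and 2.01 FPKM at day 6 and 1.31, 3.46, 8.80 and 16.8 FPKM at day 9 (log2 change 2.03 ± 0.53, adjusted p = 0.04). Their day 9 levels were lowest with DMSO and highest with BPS. Kdr was not called without BPA (adjusted p = 0.0816), BPF (0.16) or BPS (0.0912), and Plvap (3.20 ± 0.65) not without BPF (0.0782). Emcn had 2 counts at day 6 and 196 at day 9 (ratio 95.8, 95% counting interval 26.2 to 797), and Icam2 1 and 79 (77.2, 13.5 to 3090). Without BPA 8 members were called higher, without BPF 5 and without BPS 6. Members such as Tie1, which passed the filter on low values only with all 3 bisphenols in the fit, were not tested there. Tie1 passed through the 3 bisphenol libraries of day 9 and had to be higher there, so its adjusted p is a description. Hbb-bh1, an embryonic globin, measured 0.32, 0.16, 0.16 and 0.79 FPKM at day 6 and 0.16, 2.06, 8.42 and 35.5 FPKM at day 9 (log2 change 4.77 ± 0.57, adjusted p = 0.000136). Its change in the DMSO pair was -0.62, and it was not called by limma (adjusted p = 0.0554 with a pseudocount of 1 and 0.0767 with 0.1). Hbb-bh1 passed the filter on low values only through the 3 bisphenol libraries of day 9. It therefore had to be higher there, and its adjusted p from edgeR is a description. Lmo2, of blood and vessel progenitors, rose by 1.93 ± 0.16. Gata1 and the leukocyte gene Ptprc did not pass the filter, the latter listed at 0 in all 8 libraries.

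Cardiac and sclerotome lists also had their lowest median changes with DMSO. Of 21 cardiac genes tested, 11 were called higher and none lower, and the list's medians were 0.04, 1.20, 1.98 and 2.74. Myl7, the atrial myosin light chain, measured 0.49, 0.96, 4.95 and 4.68 FPKM at day 6 and 2.10, 8.55, 31.9 and 60.7 FPKM at day 9 (log2 change 3.07 ± 0.23, adjusted p = 2.98e-06), and without pairing the days by treatment it was not called (3.15, adjusted p = 0.0514). Tnni1, slow troponin I of the embryonic heart, measured 0.78, 0.72, 2.14 and 2.60 FPKM at day 6 and 3.20, 6.34, 21.8 and 32.7 FPKM at day 9 (log2 change 3.20 ± 0.22, adjusted p = 1.71e-06). Hand2 rose by 3.44 ± 0.22 and Mef2c by 2.07 ± 0.40. Tnnt2, cardiac troponin T, measured 1.06, 0.97, 0.40 and 0.82 FPKM at day 6 and 1.10, 2.20, 15.6 and 25.2 FPKM at day 9 and was not called (log2 change 3.34 ± 1.05, adjusted p = 0.0616). Neither was Myh6 (log2 change 2.37 ± 0.81, adjusted p = 0.086). Of 18 sclerotome and mesenchyme factors tested, 11 were called higher and 1 lower, with medians of 0.83, 1.45, 1.37 and 1.64. Pax1, of the sclerotome, measured 0, 0.03, 0.21 and 0 FPKM at day 6 and 0.04, 8.06, 14.6 and 23.2 FPKM at day 9 (log2 change 7.39 ± 0.40, adjusted p = 3.11e-06). With DMSO it was at the level of day 6. At 0.21 FPKM or less elsewhere, its rise rests on the bisphenol libraries of day 9, and its adjusted p is a description. Pax9 measured 0.48, 2.49, 2.73 and 3.60 FPKM at day 9 (log2 change 2.94 ± 0.23, adjusted p = 3.5e-06), Foxd1 11.3, 23.4, 25.2 and 19.9 (log2 change 2.82 ± 0.14, adjusted p = 8.68e-07), Tbx18 rose by 4.69 ± 0.47 and Osr1 by 2.54 ± 0.37. Alx1, of head mesenchyme, measured 0.82, 3.43, 7.13 and 7.36 FPKM at day 6 and 0, 0.55, 0.74 and 1.47 FPKM at day 9 and was called lower (log2 change -2.87 ± 0.28, adjusted p = 2.96e-05). Myod1, which defines skeletal muscle, was at 0.10 FPKM or less in every library, and Acta1, a skeletal actin, measured 194, 121, 162 and 96.2 FPKM at day 6 and 11.7, 18.4, 17.8 and 18.6 FPKM at day 9 (log2 change -3.12 ± 0.34, adjusted p = 0.00351).

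Matrix genes divided by treatment in both directions. Of 24 collagen and fibroblast matrix genes tested, 10 were called higher and none lower. Col3a1, a fibrillar collagen, measured 1.61, 1.02, 1.12 and 0.76 FPKM at day 6 and 12.0, 56.6, 78.1 and 87.7 FPKM at day 9 (log2 change 5.42 ± 0.78, adjusted p = 0.0101), and was not called without BPF (adjusted p = 0.0621) or BPS (0.0505). Lum, a proteoglycan, measured 2.32, 10.9, 14.8 and 16.5 FPKM at day 9 (log2 change 5.38 ± 0.28, adjusted p = 5.46e-07) and Dcn 2.24, 5.64, 5.86 and 5.15 (log2 change 2.88 ± 0.26, adjusted p = 8.38e-06). Postn, of periosteal and valve matrix, measured 37.3, 20.3, 11.2 and 11.5 FPKM at day 6 and 166, 99.8, 76.5 and 82.4 FPKM at day 9 (log2 change 2.44 ± 0.13, adjusted p = 2.15e-05), with DMSO the highest library of both days. Col1a1 measured 21.2, 10.4, 10.8 and 6.66 FPKM at day 6 and 7.10, 13.8, 18.9 and 25.6 FPKM at day 9, lower at day 9 with DMSO and higher in each bisphenol library, and was not called (log2 change 0.36 ± 0.71, adjusted p = 0.704). Of 13 cartilage and notochord matrix genes tested, 8 were called higher and 1 lower. Col9a1 rose by 3.39 ± 0.21 and Hapln1 by 4.04 ± 0.28, Col9a3 fell (-2.41 ± 0.23), and Col2a1 changed by 0.80 ± 0.09. Smooth muscle genes mostly did not pass: 1 of 15 was called higher and 3 lower, Cnn1 among them (log2 change -2.12 ± 0.21, adjusted p = 0.000462). Of 20 endoderm genes tested, 3 were called higher and none lower, Sox7, which endothelium shares, among them (log2 change 1.68 ± 0.36, adjusted p = 0.0033). Sox17, of definitive endoderm and endothelium, measured 1.47, 4.27, 7.90 and 7.16 FPKM at day 6 and 2.71, 2.18, 3.41 and 3.16 FPKM at day 9 (log2 change -0.75 ± 0.38, adjusted p = 0.153), and Afp 7.44, 18.2, 42.2 and 6.77 FPKM at day 9 (log2 change 2.07 ± 0.77, adjusted p = 0.103).

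In retinoic acid and Wnt, BMP and FGF signalling, members moved both ways. Of 15 retinoic acid genes tested, 4 were called higher and 4 lower. Cyp26a1, which degrades retinoic acid, measured 12.3, 37.4, 70.2 and 64.8 FPKM at day 6 and 3.54, 8.53, 12.9 and 12.8 FPKM at day 9 (log2 change -2.29 ± 0.10, adjusted p = 1.04e-07). Rarb, a receptor and target, measured 1.15, 1.02, 1.36 and 1.36 FPKM at day 6 and 1.95, 7.23, 8.84 and 12.0 FPKM at day 9 (log2 change 2.40 ± 0.39, adjusted p = 0.00502). Aldh1a2, which makes retinoic acid, measured 2.81 to 4.82 and 0.49 to 1.31 FPKM (log2 change -2.42 ± 0.26, adjusted p = 3.68e-05), and its relative Aldh1a1 rose by 3.62 ± 0.54 to at most 0.76 FPKM. Of 32 Wnt, BMP and FGF genes tested, 9 were called higher and 2 lower. Rspo2, an enhancer of Wnt signalling, measured 0.83, 0.76, 0.46 and 0.49 FPKM at day 6 and 15.3, 4.04, 3.15 and 3.25 FPKM at day 9 (log2 change 3.08 ± 0.30, adjusted p = 0.000133). Wnt7a rose by 3.46 ± 0.24, Bmp6 by 2.32 ± 0.19, Wnt5a by 2.08 ± 0.13 and Id2, an inhibitor of bHLH factors, by 1.36 ± 0.09, and Fgf17 fell (-1.64 ± 0.26). Of 10 nuclear receptors and other proteins that bisphenols are known to bind or induce, 4 were called higher and none lower. Nr3c1, the glucocorticoid receptor, measured 1.54, 2.03, 1.84 and 1.81 FPKM at day 6 and 3.30, 4.46, 3.55 and 4.21 FPKM at day 9 (log2 change 1.04 ± 0.09, adjusted p = 9.53e-06), and Esrrg rose by 2.34 ± 0.33, Thrb by 2.03 ± 0.32 and Cyp1a1 by 1.38 ± 0.23. The oestrogen receptor Esr1 did not pass the filter, at 0.01 FPKM or less, and Esr2 measured 0.26 to 0.46 FPKM at day 9 (log2 change 0.78 ± 0.38, adjusted p = 0.105).

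Changes that rested on the bisphenol libraries were separated from those seen with DMSO too. Of the 1937 called genes, 87 (4.49%) moved by a log2 of 1 or more in the same direction in each of the 3 bisphenols and by less than 0.5 in that direction with DMSO, 57 upwards (0.411% of genes tested) and 30 downwards (0.216%). The other 795 (41.0%) fell between the classes. With DMSO, 12 of the 87 moved by 0.5 or more in the opposite direction, and the DMSO changes ran from -1.02 to 1.37. Since the class was chosen on these changes, its values are a description. Without the BPA, BPF or BPS library 37, 31 or 33 of the 87 remained called, and 85 without DMSO. The filter still asked for 1 CPM in 3 libraries. A gene that reached it only in the 3 bisphenol libraries of 1 day was thus not tested once a bisphenol was left out. The counts are partly set by this filter and do not show how far a change rests on each library. None of the 1937 called genes moved by 1 or more with DMSO and by less than 0.5 in that direction in each bisphenol, a pattern for which a threshold on the mean of 4 changes leaves little room and which uncalled genes such as Rspo3 had. Upward members included Kdr, Plvap, Sox7, Hbb-bh1 and Pdgfrb, a receptor of pericytes and mesenchyme, which measured 1.58, 1.77, 1.89 and 2.35 FPKM at day 6 and 2.25, 8.55, 11.5 and 15.2 FPKM at day 9 (log2 change 2.10 ± 0.42, adjusted p = 0.0191), and was not called without any 1 bisphenol (adjusted p from 0.0628 to 0.0893). Lama4, a laminin of vessels, measured 0.41, 0.42, 0.85 and 0.91 FPKM at day 6 and 0.53, 2.34, 4.25 and 5.29 FPKM at day 9 (log2 change 2.06 ± 0.33, adjusted p = 0.00234). Emilin1, an elastic fibre protein, measured 2.50, 2.83, 3.43 and 3.05 FPKM at day 6 and 3.65, 8.42, 9.99 and 12.1 FPKM at day 9 (log2 change 1.40 ± 0.22, adjusted p = 0.00183). Downward members included T, Mesp2 and Noto, a node homeobox gene, which measured 0.06, 1.61, 2.01 and 1.80 FPKM at day 6 and 0.12, 0.06, 0.12 and 0.06 FPKM at day 9 (log2 change -3.85 ± 0.59, adjusted p = 0.00033). Samd3 measured 2.50, 16.4, 23.9 and 22.4 FPKM at day 6 and 1.88, 6.25, 6.71 and 5.91 FPKM at day 9 (log2 change -1.59 ± 0.22, adjusted p = 0.00118). In Noto, T and Samd3 the DMSO library of day 6 was already low. Noto passed the filter on low values only through the 3 bisphenol libraries of day 6. It therefore had to be lower at day 9, and its adjusted p is a description.

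**Figure D3:**
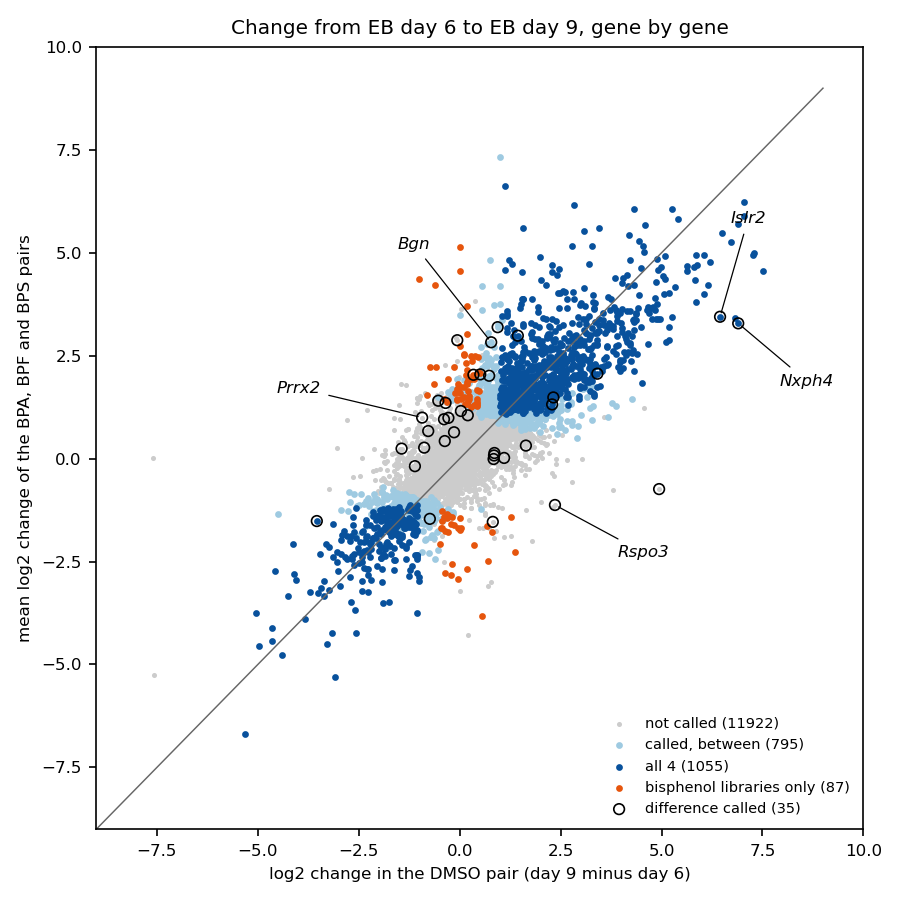
Log2 change from EB day 6 to EB day 9 in the DMSO pair (x axis) against the mean of the 3 bisphenol pairs (y axis), 1 point per gene tested, coloured by class. The 87 genes of the class named bisphenol libraries only, which is set by thresholds, lie between -1.02 and 1.37 on the x axis. With DMSO, 12 of them moved by 0.5 or more in the opposite direction. Circles mark the 35 genes whose change differed between bisphenols and DMSO.

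The difference between the bisphenol change and the DMSO change was tested itself, as an interaction of day and class. It passed at an adjusted p under 0.05 for 35 genes (0.253% of those tested), 21 with a higher change under bisphenols and 14 with a lower one, and 1226 genes had an unadjusted p under 0.05. The test assumes that the lone DMSO library of each day varies like the bisphenol libraries. Of the 35, 13 were also called between days, and 7 belonged to the 1055 genes called in all 4 treatments. Mical2 was the member shared with the 87 genes above. With the BPF library left out no gene passed in the higher direction and 1 in the lower, without BPS 8 and 5, and without BPA 339 and 272, so the number rests on which libraries are in the fit.

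Of the 14 genes with a lower change under bisphenols, 12 had lower FPKM with DMSO than with any bisphenol at day 6. Rspo3, a Wnt enhancer (chromosome 10, 29453106 to 29535867), measured 3.34, 9.18, 10.97 and 10.6 FPKM at day 6 and 18.0, 5.43, 4.42 and 4.73 FPKM at day 9. It was higher at day 9 with DMSO and lower in each bisphenol library, a difference of -3.50 ± 0.23 (adjusted p = 1.16e-05), and passed whichever bisphenol was left out. Gli1, a target of hedgehog signalling, measured 2.81, 7.82, 6.89 and 7.52 FPKM at day 6 and 9.19, 11.1, 8.93 and 8.87 FPKM at day 9, a difference of -1.33 ± 0.22 (adjusted p = 0.0327). Ptch1, the hedgehog receptor and target, measured 26.7, 63.3, 70.0 and 73.7 FPKM at day 6 and 50.2, 75.5, 76.8 and 74.0 FPKM at day 9, a difference of -0.78 ± 0.13 (adjusted p = 0.0327). At day 9 DMSO was within the bisphenol range in Gli1, and in Ptch1 DMSO remained the lowest. Nnat, one of the largest gains above, differed by -0.98 ± 0.13 (adjusted p = 0.0147), with a DMSO level within the range of the others at day 9.

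Nxph4, Islr2 and Stmn2 were among the 14 genes with a lower change under bisphenols. Nxph4, a neurexophilin of neurons, measured 0.17, 0.88, 1.04 and 1.22 FPKM at day 6 and 27.4, 14.7, 10.1 and 8.94 FPKM at day 9, a difference of -3.88 ± 0.70 (adjusted p = 0.0492). Islr2, an adhesion protein of growing axons, measured 0.19, 0.60, 0.98 and 0.85 FPKM at day 6 and 18.7, 11.2, 9.06 and 7.69 FPKM at day 9, a difference of -3.13 ± 0.52 (adjusted p = 0.0367). Stmn2, a tubulin-binding protein of growth cones, measured 21.0, 26.4, 32.9 and 27.7 FPKM at day 6 and 46.8, 33.1, 31.0 and 27.4 FPKM at day 9, a difference of -1.08 ± 0.19 (adjusted p = 0.0367). Nxph4 and Islr2 rose in all 4 treatments. In Stmn2 the DMSO library was the lowest at day 6 and the highest at day 9. Adamts3, a metalloprotease, had a difference of -1.35 ± 0.22 (adjusted p = 0.0327). Ccnd2 differed by -0.83 ± 0.12, Zic2 by -0.73 ± 0.13 and Cdh2, the cadherin of neuroepithelium, by -0.72 ± 0.12. The proneural list itself held no gene past this test (median difference -1.24 over its 9 tested genes).

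The other 21 genes had a higher change under bisphenols. Bgn (biglycan), a proteoglycan, measured 4.33, 4.60, 4.86 and 4.22 FPKM at day 6 and 7.73, 29.97, 33.8 and 38.4 FPKM at day 9, a difference of 2.06 ± 0.25 (adjusted p = 0.00582). Cdh11, a cadherin of mesenchyme, measured 9.89, 8.55, 6.57 and 7.67 FPKM at day 6 and 14.7, 28.5, 35.2 and 34.4 FPKM at day 9, a difference of 1.54 ± 0.21 (adjusted p = 0.0317). Prrx2, a homeobox factor of limb and head mesenchyme, measured 12.4, 10.6, 10.7 and 9.30 FPKM at day 6 and 6.77, 17.4, 22.3 and 24.5 FPKM at day 9, a difference of 1.95 ± 0.30 (adjusted p = 0.0296). At day 6 the 4 libraries of these genes were close, with DMSO within or above the bisphenol range, and at day 9 DMSO was the lowest. Itga8 differed by 1.96 ± 0.36, Eva1b by 1.69 ± 0.26, Scube1 by 1.55 ± 0.21, Pcdh18 by 1.34 ± 0.21 and Emp1 by 1.29 ± 0.24. Nrp2, a receptor of semaphorins and VEGF, measured 14.1, 10.6, 9.56 and 9.81 FPKM at day 6 and 12.1, 19.9, 21.2 and 20.7 FPKM at day 9, a difference of 1.27 ± 0.13 (adjusted p = 0.00109). Ahr, the aryl hydrocarbon receptor, and Cyp1b1, a cytochrome P450 that it induces, differed by 1.46 ± 0.26 and 1.71 ± 0.28, while Cyp1a1 did not pass (0.29, adjusted p = 0.951). Of the 14 genes chosen for description here, 13 lost the call without the BPF library (all but Rspo3, adjusted p from 0.132 to 0.377), and 9 lost it without BPS (0.0532 to 0.0691). None of the 14 lost it without BPA. In limma 10 of the 14 lost it with a pseudocount of 1 and 9 with 0.1, and Nxph4 lost it also with library size scaling (adjusted p = 0.054) and with the filter of 5 CPM (0.0542). Bgn was also not called between days without BPA (2.33, adjusted p = 0.0516), BPF (2.27, 0.0815) or BPS (2.16, 0.0756).

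**Figure D4:**
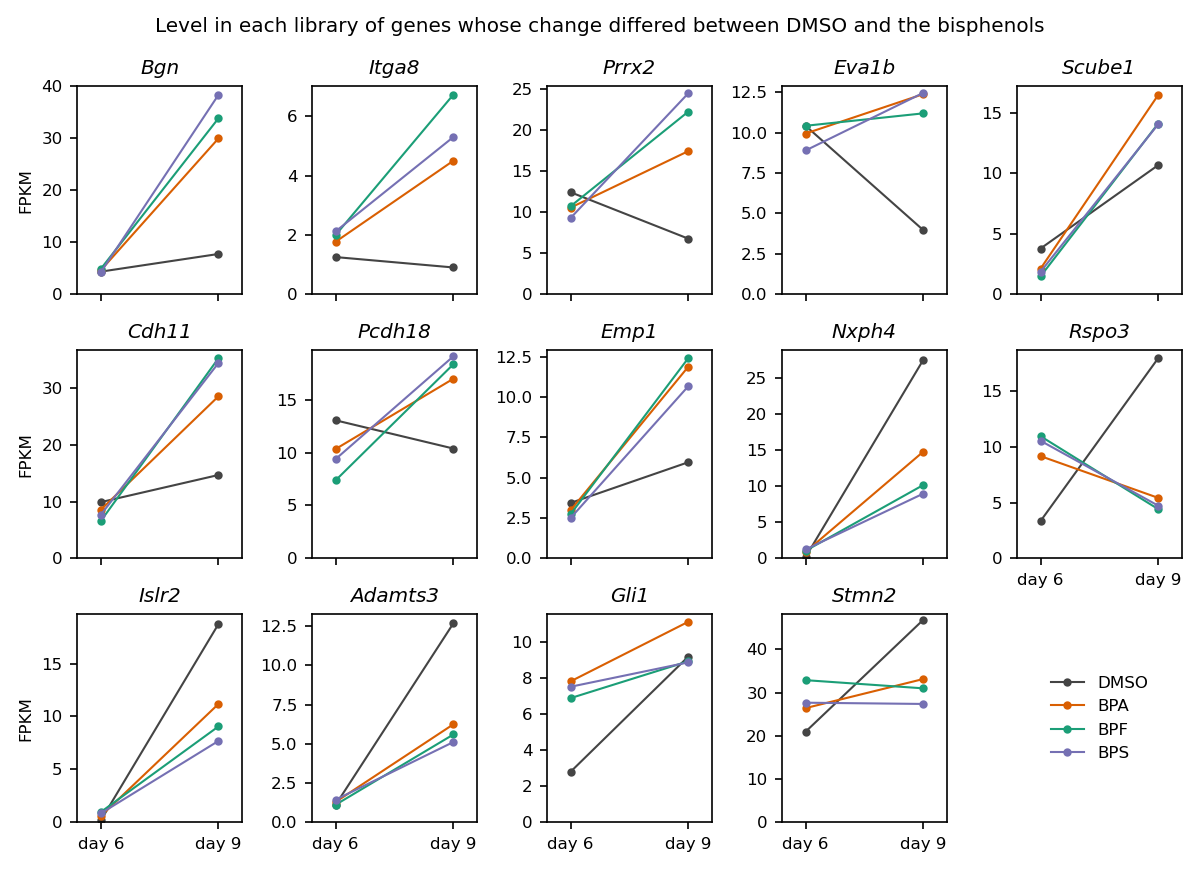
FPKM at EB day 6 and EB day 9 of 14 genes whose change differed between bisphenol and DMSO libraries, with 1 line per treatment. They are up to 8 per direction with a called difference of 1 or more and 5 FPKM or more at day 9. Some genes of lower level, such as Robo3 and Ndnf, had larger differences and are not shown. The DMSO line of Rspo3 rises from 3.34 to 18.0 FPKM while the 3 bisphenol lines are lower at day 9.

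Kdr, Plvap and T, which are among the 87 genes of the bisphenol libraries, did not pass this test. Kdr differed by 2.41 ± 1.87 (adjusted p = 0.84), Plvap by 3.70 ± 1.59 (adjusted p = 0.593) and T by -1.02 ± 0.25 (adjusted p = 0.184). In Kdr and Plvap the 3 bisphenols were themselves spread, from 3.46 to 16.8 and from 3.46 to 12.1 FPKM at day 9. In simulated data of the same size the test recovered 46% of differences of 2-fold and 84% of differences of 4-fold. The change between days recovered 86% and 94%, counted at an adjusted p under 0.05 without the log2 threshold. The simulation had no level differences between treatments, which the fit by class leaves in its residual. Recovery of differences in these data may therefore be lower.

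The list values of the 3 bisphenols are set side by side, and with 1 library each they have no test. The proneural list had median changes of 4.03 with DMSO, 3.72 with BPA, 3.69 with BPF and 3.53 with BPS, and its summed FPKM at day 9 was 142, 95.2, 77.9 and 64.0. The commitment list had medians of 3.56, 3.06, 2.45 and 2.35. The summed FPKM at day 9 of the endothelial list was 29.5, 47.0, 86.2 and 125, and that of the cardiac list 74.5, 119, 259 and 389. In these lists BPA lay nearest to DMSO and BPS farthest from it. Other lists had other orders. The summed FPKM at day 9 of the floor plate list was 254, 411, 392 and 352, with BPA farthest from DMSO and BPS nearest. The Hox list had medians of 2.47, 1.44, 2.07 and 1.83, with BPA farthest, and the endoderm list -0.09, 0.60, 1.31 and -0.17, with BPS nearest. Over all 1406 genes called higher the median changes were alike, at 1.63, 1.71, 1.72 and 1.68, with the DMSO change the largest of the 4 in 483 genes and the BPS change in 318.

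For some neuronal genes the mean level was higher at day 12 than at day 9. Nhlh1 measured 23.4, 15.8, 12.0 and 11.1 FPKM at day 9, 50.2, 36.1, 29.25 and 29.1 FPKM at day 12 and 3.75 to 5.41 FPKM at day 20. Neurog2 peaked at day 12 too, with a mean of 52.5 FPKM, and was at 5.38 at day 20. Tubb3 averaged 2.60, 11.6, 99.4, 339 and 506 FPKM at EB days 4, 6, 9, 12 and 20, and Fabp7 35.1 at day 9 and 271 at day 12. Dcx reached 22.9 FPKM at day 12 and 47.0 at day 20, and in neural progenitor cultures of day 10 it averaged 157. Psmb8 averaged 0.02 FPKM at day 0, 17.6 at day 4, 14.8 at day 6 and 0.735 at day 9. Pou5f1 averaged 810 FPKM at day 0, 104 at day 6, 19.4 at day 9 and 14.4 at day 12. Averages are over the 4 treatments of a stage and were not tested here.

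**Figure D5:**
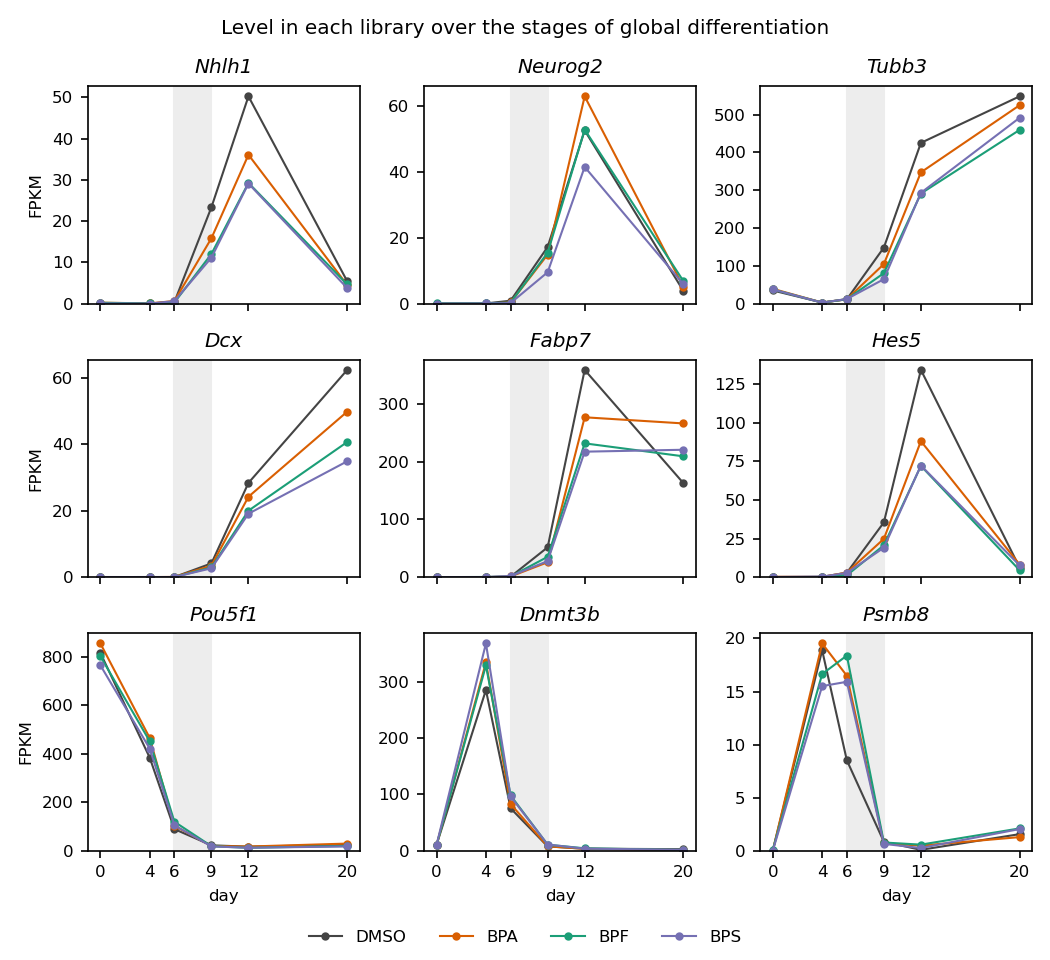
FPKM on a linear axis across EB days 4 to 20, with stem cells at day 0, for 9 genes, 1 line per treatment, the interval from day 6 to day 9 shaded. Nhlh1 and Neurog2 peak at day 12, Tubb3 goes on to day 20, and Dnmt3b and Psmb8 lie high at days 4 and 6.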

How the data were processed

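RNA of the 8 libraries was extracted with Trizol and RNeasy Plus kits and made into libraries at BGI, per the labels' protocols. The authors deposited 1 table per library with expected counts (RSEM's estimated reads per gene, not normalised) and FPKM computed by the authors. RSEM, HISAT, Bowtie2 and the build mm10 appear in the submitters' processing notes, and their roles, versions and any strand setting are not given in the sources used here. Genes not listed (FPKM under 0.01) were set to 0, and 79.7% to 80.6% of expected counts per library were whole numbers. Of 20612 gene identifiers, 20551 matched RefSeq (GRCm38.p6) directly, 9 matched by transcript and 52 did not.

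Expected counts were rounded and tested with edgeR 4.0.16 in R 4.3.3 (quasi-likelihood, TMM factors 0.969 to 1.029, genes at 1 CPM or more in at least 3 of the 8 libraries). The change between days was fitted with treatment as a block (3 residual degrees of freedom), which pairs the days by treatment label. The difference between bisphenols and DMSO was fitted as day by class (4 residual degrees of freedom). Changes per treatment are differences of log2 CPM with a prior count of 1. Alternatives were RLE and library size scaling, other filters, DESeq2 1.42.0, limma 3.58.1 on log2(FPKM + 1) and log2(FPKM + 0.1), all 32 libraries, no block, glmTreat and leaving out each treatment. On simulated counts for 13859 genes the change between days recovered 86% of 2-fold and 94% of 4-fold changes with 15 false calls. These were counted at an adjusted p under 0.05 alone. The log2 threshold of 1 was not applied, and the median log2 of the 2-fold changes was 1.02, so fewer of them would be called. The difference recovered 46% and 84% with 11 false calls, in counts simulated without level differences between treatments.

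The comparison, its members and the 39 gene lists were chosen with earlier results of these data known. Named genes were, by rule, (a) the 10 highest and 10 lowest changes among called genes of 10 FPKM or more that moved by 1 or more in all 4 treatments, (b) the 8 largest gains and 8 largest losses in mean FPKM, (c) up to 8 genes in each direction with a called difference of 1 or more and 5 FPKM or more, and (d) up to 6 called members of each list with the largest change, with defining members that did not pass. Gene models and pseudogenes were passed over, and some genes the rule chose are not reported here. Bhlhe22, Dll1, Evx1, Gadd45g, Gbp7, Hes3, Hes6, Igtp, Insm1, Irf1, Isl1, Kdr, L1cam, Lefty1, Lmx1a, Map2, Mesp2, Nefh, Notch1, Ntn1, Olig3, Plvap, Pou5f1, Psmb10, Slc18a3, Sv2a, Syp, T, Utf1, Zic1 and Zic2 were named in addition, after their values were seen. So were Ahr, Ccnd2, Cdh2, Cyp1b1, Mical2, Nnat, Nrp2, Ptch1 and Zic2 among the differences, and Lama4, Pdgfrb, Samd3, Cfap126, Dnajb13, Drc1, Emilin1 and Enkur among genes that changed in the bisphenol libraries. Counting intervals are 95% and cover counting error only.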

Additional observations from a re-analysis of the deposited data

Results flagged for a closer look

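In 4 of 100 groups of 4 libraries examined, 1 library stood far from the other 3 by Dixon's test, where chance gives about 1 in 20 for genes not chosen on these values. These 4 genes were chosen for a difference between DMSO and bisphenols, so that rate does not apply to them. All 4 were at day 9. Eva1b was low with DMSO at 3.97 FPKM, against 11.2 to 12.5 with bisphenols. Rspo3 was high with DMSO at 17.97 FPKM (others 4.42 to 5.43), and so was Adamts3 at 12.68 (others 5.12 to 6.25). Gli1 was high with BPA at 11.12 FPKM, with 8.87 to 9.19 in the others.

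The change from day 6 to day 9 was compared between bisphenol and DMSO libraries in edgeR's interaction test. It differed by a log2 of 1 or more in 25 genes that passed. Values are given for 14 of them, chosen at 5 FPKM or more at day 9 with a limit on the number per direction. The difference was 2.06 for Bgn, 1.96 for Itga8, 1.95 for Prrx2, 1.69 for Eva1b, 1.55 for Scube1, 1.54 for Cdh11, 1.34 for Pcdh18 and 1.29 for Emp1, higher with bisphenols. It was -3.88 for Nxph4, -3.50 for Rspo3, -3.13 for Islr2, -1.35 for Adamts3, -1.33 for Gli1 and -1.08 for Stmn2, lower with them. Adjusted p ran from 1.16e-05 for Rspo3 to 0.0492 for Nxph4. The lone DMSO library of day 9 that stood apart in Eva1b, Rspo3 and Adamts3 enters these differences, and its part in them was not tested.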

How the results depend on the processing

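No result reversed its direction under any alternative. Genes called higher and lower between days numbered 1388 and 520 with no replicate block, that is without pairing the days by treatment. The counts of called genes moved with the filter of 5 CPM (875 higher, 298 lower), limma on log2(FPKM + 1) (676, 225), glmTreat (800, 229) and adjusted p alone (4143, 3727). Differences between bisphenols and DMSO, 21 higher and 14 lower, became 57 and 40 with no filter, 59 and 46 in DESeq2, 8 and 2 in limma on log2(FPKM + 1), 7 and 3 with a pseudocount of 0.1 and 75 and 70 over all 32 libraries. At a log2 of 1 or more (17 and 8) they were 34 and 28, 39 and 32, 8 and 2, 7 and 3, and 55 and 50. Leaving out 1 bisphenol gave 0 to 339 higher and 1 to 272 lower, or 0 to 167 and 1 to 148 at a log2 of 1. With a threshold of 0.5 or 1.5, genes changed in all 4 treatments numbered 1253 or 447 higher and 456 or 112 lower, and at 1.5 those of the bisphenol libraries only 23 and 10. With a DMSO limit of 0 these were 16 and 11.

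In gene lists, members called higher with the filter of 5 CPM were 6 of synaptic, 4 of transmitter, 6 of channel, 13 of subtype, 0 of Hox, 1 of endoderm, 5 of cardiac, 5 of endothelial, 1 of erythroid, 1 of nuclear receptor and 2 of retinoic acid genes, and 5 streak genes were called lower. With limma on log2(FPKM + 1) they were 2 of REST and BAF, 8 of synaptic, 4 of transmitter, 5 of channel, 11 of subtype, 1 of Hox, 2 of neural crest, 7 of sclerotome, 7 of cardiac, 9 of endothelial, 1 of erythroid, 5 of cartilage, 0 of nuclear receptor and 2 of retinoic acid genes, and 3 forebrain and 2 retinoic acid genes were lower. With glmTreat they were 9 synaptic, 1 neural crest, 0 endoderm, 7 cardiac, 2 nuclear receptor and 5 Wnt genes, and 1 progenitor, 2 forebrain, 1 smooth muscle, 2 surface ectoderm and 2 retinoic acid genes lower. With no filter 5 erythroid genes were higher, and over all 32 libraries 1 smooth muscle gene was lower. Leaving out 1 treatment at a time gave 4 to 6 Hox, 2 to 4 neural crest, 1 to 4 endoderm and 5 to 16 endothelial genes called higher, and 1 to 3 smooth muscle and 2 to 4 retinoic acid genes called lower. The filter still asked for 3 libraries in these fits, so some members were not tested in them.

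Of 199 genes named for their change between days, 65 were tested and lost the call in at least 1 alternative. Of these, 45 did so in limma on log2(FPKM + 1), 33 with glmTreat and 4 to 11 when 1 treatment was left out. Genes that the filter of an alternative removed are not in these counts. The filter of 5 CPM, which left no Hox gene called, therefore adds none, and the counts understate the calls lost. Library size scaling moved the median of all genes to 0.08, and higher genes made up 71.6% to 77.7% of the called across settings. The paired fit has 3 residual degrees of freedom. Genes under 1 FPKM at both days can rest on few counts, the fewer the shorter the transcript.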

Other observations

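Among the 30 genes that fell in the bisphenol libraries and were not lower by 0.5 or more with DMSO were several that encode parts of motile cilia, a group noticed after the values were seen and not tested as one. Drc1, of the dynein regulatory complex, measured 0.37, 1.47, 1.61 and 1.93 FPKM at day 6 and 0.33, 0.15, 0.37 and 0.31 FPKM at day 9 (log2 change -2.18 ± 0.41, adjusted p = 0.00135). Cfap126, a basal body protein, measured 2.74, 6.48, 9.0 and 8.38 FPKM at day 6 and 2.0, 2.0, 1.55 and 2.10 FPKM at day 9 (log2 change -1.78 ± 0.29, adjusted p = 0.000729). Dnajb13, of the radial spoke, measured 0.32, 1.5, 2.21 and 1.92 FPKM at day 6 and 0.24, 0.24, 0.40 and 0.08 FPKM at day 9 (log2 change -2.59 ± 0.48, adjusted p = 0.00104), and Enkur, of the inner axoneme, 0.31, 2.04, 1.96 and 2.44 FPKM at day 6 and 0.61, 0.61, 0.54 and 0.64 FPKM at day 9 (log2 change -1.46 ± 0.42, adjusted p = 0.0136). In all 4 genes the DMSO library of day 6 was the lowest of that day, and at day 9 no library was above 2.10 FPKM. Drc1, Dnajb13 and Enkur passed the filter on low values only through the 3 bisphenol libraries of day 6. Those 3 genes therefore had to be lower at day 9, and their adjusted p-values are a description. Foxj1, the transcription factor of motile cilia, measured 2.52, 5.36, 7.57 and 6.74 FPKM at day 6 and 3.69, 4.43, 3.59 and 4.23 FPKM at day 9 and was not called (log2 change -0.47 ± 0.24, adjusted p = 0.143). The difference between bisphenols and DMSO did not pass for any of the 5, with adjusted p from 0.234 for Enkur to 0.624 for Dnajb13 among the first 4 and 0.184 for Foxj1.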
